A study of Mus musculus with 2 samples.

Results

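Fragments of 15 to 17 nt from 4 kinds of small RNA were examined in J1 mouse embryonic stem cells: 7SL RNA (genes Rn7s1 and Rn7s2), 7SK RNA (Rn7sk), the Y RNAs (Rny1 and Rny3), and the GENCODE gene Gm22514. A sequence belonged to the set if it matched the GENCODE M21 transcript of 1 of these 6 genes exactly, over its full length and on the sense strand. Of 96471 distinct sequences of 15 to 17 nt, 246 did so. The 6 genes had been chosen by their read counts in these same 2 libraries from 1981 small RNA genes with a match, so their abundance is a description and supports nothing else. No sequence was shared between different RNAs of the set, but all 137 sequences of 7SL lie in both Rn7s1 and Rn7s2, whose 300 nt transcripts are identical. They are given as 1 RNA below.

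The cells, of strain 129S4/SvJae, had received 3 µM SB431542 for 24 h or an equal volume of its solvent DMSO for 24 h. SB431542 inhibits the kinase of the activin, Nodal and TGF-beta type I receptors. Both groups grew on gelatin in medium with 1000 U/mL leukaemia inhibitory factor (LIF), which keeps mouse stem cells undifferentiated, and with Knockout Serum Replacement. The labels name 1 established line and 1 library per group, so differences could not be tested against replicates and carry no p-value. Intervals from read counts reflect counting error alone. The SB431542 library held 517535 reads of 15 to 17 nt and the DMSO library 990296, a 1.91-fold difference in depth, so that 3 reads correspond to 5.80 and 3.03 reads per 1000000 reads (RPM) of that length class. Levels are RPM on this scale unless another is named, and ratios are log2 of SB431542 over DMSO with 95% exact binomial intervals. The mean GC content of all these reads was 64.2% with SB431542 and 60.7% with DMSO. The identity of the cells was not checked here, since fragments of this length do not mark a cell type. Fewer cells with an RNA and less RNA per cell cannot be told apart in such samples, and neither can cutting of an RNA and its abundance.

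7SL, 7SK and the Y RNAs are transcribed by RNA polymerase III and work inside ribonucleoproteins. 7SL is the scaffold of the signal recognition particle, which brings ribosomes making secreted and membrane proteins to the endoplasmic reticulum. 7SK, with HEXIM proteins, holds the kinase P-TEFb inactive and so restrains elongation by RNA polymerase II. Y RNAs bind the Ro60 protein and have been linked to RNA quality control and to the start of DNA replication, and their ends are a known source of small fragments in mammalian cells. Gm22514 has no role known from the annotation used here, which lists it as a miscellaneous RNA.

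The stretches that gave most of the reads are shown first, with the bases of the main fragments in capitals. They come from transcripts of GENCODE M21 (GRCm38) and are written 5′ to 3′ as DNA.
7SL, bases 178 to 218: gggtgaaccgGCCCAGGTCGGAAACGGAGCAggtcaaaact
7SK, bases 40 to 76: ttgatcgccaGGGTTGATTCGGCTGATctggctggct
7SK, bases 240 to 276: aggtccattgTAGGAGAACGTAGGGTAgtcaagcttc
Y1, bases 1 to 40: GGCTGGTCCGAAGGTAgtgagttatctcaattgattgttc
Y3, bases 1 to 40: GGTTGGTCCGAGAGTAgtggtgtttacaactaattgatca
Gm22514, bases 220 to 308: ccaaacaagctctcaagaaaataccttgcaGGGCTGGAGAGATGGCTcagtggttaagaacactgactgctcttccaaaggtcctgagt
In 7SL the capitals mark the stretch from base 188 to base 208, and in the others the commonest fragment at that place. The capitals of Y1 and Y3 are the first 16 bases of each RNA. In Y1 the first 17 bases had as many reads over both libraries, 11, as the first 16.

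The 6 genes lie at 5 places of the GRCm38 genome, and none lies inside another annotated gene on either strand. Rn7s1 is at chr12:69159295-69159594 on the plus strand and Rn7s2 at chr12:69361182-69361481 on the minus strand, 201587 nt apart. Rn7sk (331 nt) is at chr9:78175303-78175633 on the minus strand. Rny1 (112 nt) is at chr6:47788069-47788180 on the minus strand and Rny3 (102 nt) at chr6:47781624-47781725 on the plus strand, 6343 nt from it. Gm22514 (308 nt) is at chr10:78370013-78370320 on the minus strand. All 6 are non-coding transcripts of a single exon.

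Gm22514 and 7SL fragments made up nearly all the reads of the set, 7SK gave few, and the Y RNAs gave almost none. The set as a whole held 3217 reads with SB431542 and 4384 with DMSO, which is 0.622% (95% Clopper-Pearson interval 0.600 to 0.643) of the 15 to 17 nt reads with SB431542 and 0.443% (0.430 to 0.456) with DMSO. The log2 ratio was 0.49 (0.42 to 0.56), a 1.40-fold higher share in the SB431542 library. Gm22514 took 53.2% of these reads with SB431542 and 49.7% with DMSO. 7SL took 41.5% with SB431542 and 45.8% with DMSO. Without Gm22514, whose reads cannot be placed in that gene alone, 1505 reads remained with SB431542 and 2203 with DMSO, and the log2 ratio was 0.39 (0.29 to 0.48). Matching the antisense strand in the same way gave 0 reads with SB431542 and 2 with DMSO, both in Gm22514.

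7SL fragments stood at 2581 RPM with SB431542 (1336 reads) and 2026 RPM with DMSO (2006 reads), a log2 ratio of 0.35 (0.25 to 0.45). 7SK fragments stood at 274 RPM with SB431542 (142 reads) and 150 RPM with DMSO (149 reads), a log2 ratio of 0.87 (0.52 to 1.21). Gm22514 sequences stood at 3308 RPM with SB431542 (1712 reads) and 2202 RPM with DMSO (2181 reads), a log2 ratio of 0.59 (0.49 to 0.68). So each of these 3 RNAs had a higher RPM with SB431542, and none of them reached 2-fold on this scale. For 7SK that depended on the setting: its log2 ratio passed 1 with edgeR TMM factors (1.03), with DESeq2 size factors (1.07), without its commonest sequence (1.05) and with a correction for GC content (1.15). The Y RNAs had 52.2 RPM together with SB431542 (27 reads) and 48.5 RPM with DMSO (48 reads), with a log2 ratio of 0.12 whose interval of -0.63 to 0.82 spans 0. A difference of the Y RNAs was therefore not detectable at this depth.

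Set beside the other small RNA genes, these ratios were not unusual. With genes of identical reads merged, 308 small RNA features had at least 50 reads over both libraries, and many of them share sequences with each other or with the members. Among them 52 (16.9%) were at least 2-fold higher with SB431542, against 0 of the 3 member RNAs, and 36 (11.7%) at least 2-fold lower, again against 0 of 3. The interval lay above 0 for 132 of the 308 (42.9%) and for 3 of the 3 member RNAs, whose choice used these counts. Counted by distinct sequences at equal depth (DMSO thinned), the interval spanned 0 for 7SL (-0.21 to 0.70) and for Gm22514 (-1.27 to 1.24). These intervals treat overlapping sequences of 1 RNA as independent counts, so they do not measure the counting error of the reads. With reads divided over all genes that hold the sequence, the Gm22514 log2 ratio was 0.63. Its interval (-1.72 to 2.83) was computed from the few reads left by the division, so its width is not counting error. The median log2 ratio of the 308 was 0.20. Of the 308, 61 had a ratio above that of 7SK, 93 above that of Gm22514 and 130 above that of 7SL. By annotated class, the median was 0.80 over 35 miscellaneous RNA features, to which the members belong, and 0.67 over 87 snRNA features. It was -0.17 over 83 ribosomal RNA features, -0.31 over 19 snoRNA features and -0.37 over 79 miRNA features.

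**Figure D1:**
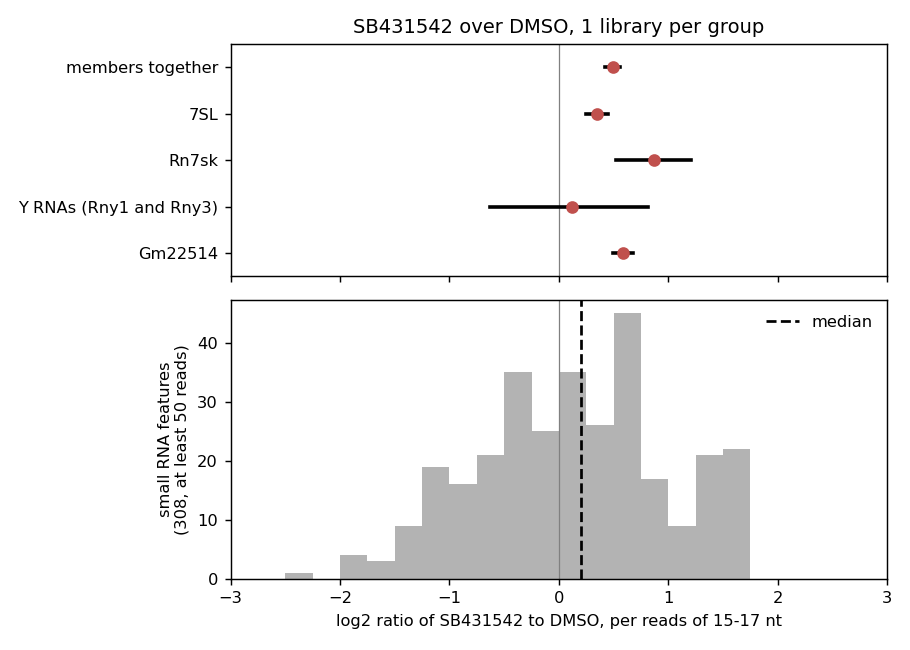
Above, the log2 ratio of SB431542 to DMSO per reads of 15 to 17 nt for each RNA of the set (points, 1 library per group) with its 95% exact binomial interval (lines). Below, the number of small RNA features with at least 50 reads at each ratio. The 3 RNAs with at least 50 reads sit at 0.35, 0.59 and 0.87, to the right of the median of 0.20 (dashed) and inside the range of the other features.

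Most reads of 7SL came from 1 narrow stretch. Over the 300 nt, the middle of the RNA (the 100 nt from base 101) gave 86.5% of the 7SL reads with SB431542 (84.6 to 88.3) and 85.6% with DMSO (84.0 to 87.1). The 5′ part of equal length gave 11.3% with SB431542 and 12.1% with DMSO, and the 3′ part 2.17% with SB431542 and 2.24% with DMSO. Each fragment was placed by its midpoint. The most covered bases were 197 to 203 with SB431542 and 201 to 202 with DMSO. These reach into the 3′ part, so the low share of the 3′ part depends on that placement. Bases 188 to 208, the capitals in the sequence shown above, were the main peak, with 1050 reads with SB431542 (78.6%) and 1619 with DMSO (80.7%) in 26 distinct sequences. A peak is a run of bases that at least 5% of an RNA's reads cover. The motif GGAA occurs once in 7SL, at bases 197 to 200, inside this peak. As background, GGAA is the tetraloop at the tip of helix 8 of signal recognition particle RNA, close to where the SRP54 protein binds.

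**Figure D2:**
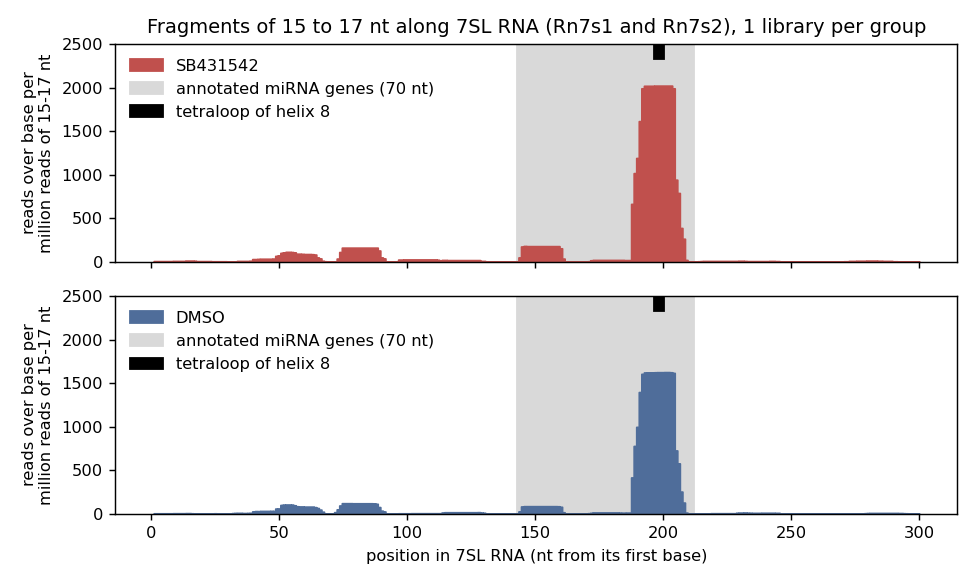
Reads over each base of 7SL RNA (x axis, nt from its first base) in RPM of the reads of 15 to 17 nt, with SB431542 above and DMSO below, 1 library each. The tallest block covers bases 188 to 208 in both libraries and lies across the tetraloop of helix 8 (black) and within the 70 nt annotated as miRNA genes (grey).

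A pair of smaller peaks lay upstream of it. Bases 145 to 159 had 93 reads with SB431542 (180 RPM) and 86 with DMSO (86.8 RPM), which is 6.96% of the 7SL reads with SB431542 and 4.29% with DMSO. Their log2 ratio was 1.05 (0.61 to 1.49). The 5% rule counts the reads of both libraries together, and this stretch would not meet it in the DMSO library alone, so its ratio is partly set by how it was chosen. Bases 75 to 88 had 83 reads with SB431542 (160 RPM) and 120 with DMSO (121 RPM), a log2 ratio of 0.41 (-0.02 to 0.82). The main peak had 2029 RPM with SB431542 and 1635 RPM with DMSO, a log2 ratio of 0.31 (0.20 to 0.42). The 88 sequences outside the 3 peaks had 110 reads with SB431542 and 181 with DMSO, a log2 ratio of 0.22 (-0.14 to 0.57). They include fragments around base 53, which 58 reads with SB431542 and 105 with DMSO covered. That stretch missed the 5% rule over both libraries together but would meet it in the DMSO library alone. In all, fragments covered 268 of the 300 bases with SB431542 and 278 with DMSO.

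Within the main peak the ratio differed by the first and last base of the fragment, which cannot be told apart from its length here. Most reads starting at base 188 were 1 sequence of 17 nt, bases 188 to 204. Most reads ending at base 208 were another of 17 nt, bases 192 to 208. Base 188 was the commonest first base, with 339 reads with SB431542 (25.4% of the 7SL reads) and 403 with DMSO (20.1%), and its log2 ratio was 0.69 (0.47 to 0.90). Starts at base 192 also had a positive ratio, 0.85 (0.56 to 1.14), from 195 reads with SB431542 and 207 with DMSO. The starts between them did not: the log2 ratio was -0.02 (-0.29 to 0.23) at base 189, -0.34 (-0.72 to 0.01) at base 190 and 0.08 (-0.16 to 0.32) at base 191. Base 204 was the commonest last base, with 543 reads with SB431542 (40.6%) and 882 with DMSO (44.0%), at a log2 ratio of 0.24 (0.08 to 0.39). Fragments ending at base 208 numbered 126 with SB431542 and 114 with DMSO, at a log2 ratio of 1.08 (0.70 to 1.46).

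The same held for single sequences of the peak. The commonest, bases 188 to 204, had 330 reads with SB431542 (638 RPM) and 398 with DMSO (402 RPM), at a log2 ratio of 0.67 (0.45 to 0.88). The next, bases 189 to 204, had 162 reads with SB431542 (313 RPM) and 327 with DMSO (330 RPM), at -0.07 (-0.36 to 0.20). Bases 191 to 206 had 131 reads with SB431542 (253 RPM) and 211 with DMSO (213 RPM), at 0.25 (-0.08 to 0.57). Thus 1 base at the 5′ end separated a sequence with a higher RPM under SB431542 from one without. Bases 192 to 208 had 121 reads with SB431542 (234 RPM) and 109 with DMSO (110 RPM), at 1.09 (0.70 to 1.47). Bases 190 to 204 had 51 reads with SB431542 (98.5 RPM) and 157 with DMSO (159 RPM), at -0.68 (-1.17 to -0.22), the lowest ratio of any member sequence with at least 50 reads. Outside the main peak, bases 145 to 160, of 81.2% GC, had 43 reads with SB431542 (83.1 RPM) and 37 with DMSO (37.4 RPM), at 1.15 (0.48 to 1.83), the highest.

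Over the whole set, 15 sequences had at least 50 reads, 11 of them of 7SL, and their log2 ratios ran from -0.68 to 1.15 with a median of 0.26. At least 2-fold higher with SB431542 were 2 of the 15, against 165 of all 2446 such sequences (6.75%), and at least 2-fold lower were 0 of the 15, against 334 (13.7%). Both higher ones were of 7SL, bases 192 to 208 and bases 145 to 160. The median over all 2446 was -0.09. These ratios also moved with base composition: among sequences outside the set with at least 20 reads, the median log2 ratio was -0.72 at 30 to 40% GC and 0.41 at 90 to 100% GC. That median was -0.01 at 60 to 70% GC and 0.04 at 70 to 80%, the range of the commonest 7SL sequence (70.6% GC). It was -0.47 at 40 to 50%, the range of the commonest 7SK sequence, and 0.38 at 80 to 90%, that of 7SL bases 145 to 160. Correcting for GC is among the alternatives, and the part of GC content in the differences between single sequences was not tested.

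The 7SL ratio differed by fragment length, which was not separated from position. Measured per reads of the same length, it was 0.08 (-0.17 to 0.33) at 15 nt, 0.29 (0.12 to 0.46) at 16 nt and 0.49 (0.35 to 0.64) at 17 nt. Just below the length that defined the set, 7SL fragments of 14 nt had 410 reads with SB431542 and 796 with DMSO, 0.624% (0.565 to 0.688) of the 14 nt reads with SB431542 and 0.712% (0.664 to 0.764) with DMSO, a log2 ratio of -0.19 (-0.37 to -0.02). The sign thus differed between 14 and 17 nt. Most of the 14 nt reads were 1 sequence, bases 191 to 204, with 348 reads with SB431542 and 703 with DMSO. Among sequences that end at base 204, in RPM of all reads in the file, this one stood at 539 with SB431542 and 591 with DMSO, while the 17 nt one stood at 511 with SB431542 and 334 with DMSO. On that scale the log2 ratio was -0.13 (-0.32 to 0.05) at 14 nt and -0.73 (-1.23 to -0.28) at 15 nt. It was -0.13 (-0.41 to 0.14) at 16 nt and 0.61 (0.40 to 0.83) at 17 nt, so of these 4 only the longest was higher with SB431542. Sequences longer than 17 nt were not analysed here.

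**Figure D3:**
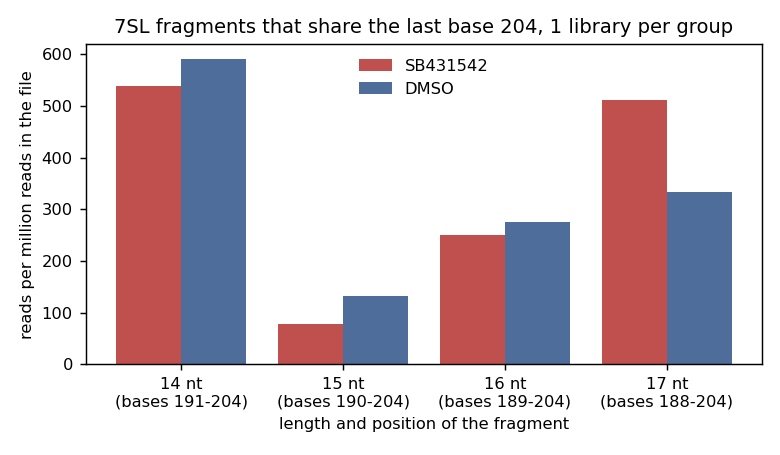
RPM of all reads in the file (y axis) for the 7SL fragments of 14 to 17 nt that share the last base 204 (x axis), with SB431542 and DMSO as paired bars, 1 library each. The 17 nt fragment is higher with SB431542 (511 against 334) while the 14 nt fragment stands at 539 against 591.

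The share of 17 nt sequences among 7SL reads was 49.0% with SB431542 and 44.7% with DMSO, that of 16 nt 35.2% with SB431542 and 36.6% with DMSO, and that of 15 nt 15.8% with SB431542 and 18.6% with DMSO. All reads of 15 to 17 nt were divided more evenly between the libraries, with 49.1% at 17 nt with SB431542 and 49.5% with DMSO. 7SL reads can also come from copies. The 7SL transcript aligned with 30 other small RNA genes over at least 50 columns at 80% identity or more, and the sequences were found in 0 to 34 other genes, with a median of 4. The commonest ones lie in Rn7s6 and Gm25687 as well. They also lie in Gm47287, Gm47304 and Gm47305, which GENCODE lists as miRNA genes. Gm47287 is inside Rn7s1 and Gm47305 inside Rn7s2, and each of the 3 is bases 143 to 212 of 7SL. Of the 7SL reads, 1148 with SB431542 (85.9%) and 1709 with DMSO (85.2%) fell inside that stretch. No miRNA in the RefSeq table used here held a 7SL sequence.

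7SK fragments were few and lay at 2 main places. Bases 39 to 66, near the 5′ end, had 56 reads with SB431542 (108 RPM) and 60 with DMSO (60.6 RPM), at a log2 ratio of 0.84 (0.28 to 1.39). Bases 234 to 266 had 57 reads with SB431542 (110 RPM) and 66 with DMSO (66.6 RPM), at 0.73 (0.19 to 1.26). As background, the 5′ part of 7SK forms the hairpin that HEXIM proteins bind. A small peak at bases 14 to 23 had 8 reads with SB431542 and 14 with DMSO. No fragment reached beyond base 266, and 65.3% of the 331 bases were covered with SB431542 and 62.2% with DMSO.

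The commonest 7SK sequence, bases 250 to 266, had 25 reads with SB431542 (48.3 RPM) and 41 with DMSO (41.4 RPM), at a log2 ratio of 0.23 (-0.56 to 0.97), and was found in no other gene. Bases 50 to 66 had 10 reads with SB431542 and 16 with DMSO, and bases 39 to 55 had 9 with SB431542 and 8 with DMSO. Both of these lie in 8 other miscellaneous RNA genes. Without its commonest sequence the log2 ratio of 7SK was 1.05 (0.66 to 1.44). That sequence had a lower ratio than 7SK as a whole, so leaving it out could only raise the value. The same step in 7SL, whose commonest sequence had a higher ratio than the whole, gave 0.26 (0.14 to 0.37) in place of 0.35. The 25 sequences outside the peaks, each with at most 2 reads, summed to 21 reads with SB431542 and 9 with DMSO, a log2 ratio of 2.11 (0.97 to 3.47). Reads from the middle of 7SK made up 10.6% with SB431542 (15 reads) and 4.70% with DMSO (7 reads). Per reads of the same length, the log2 ratio was 1.15 (0.12 to 2.21) at 15 nt, 1.38 (0.71 to 2.08) at 16 nt and 0.59 (0.14 to 1.03) at 17 nt, so the order by length seen in 7SL was not seen here. In 7SK, 14 sequences lie in no other gene, with 57 reads with SB431542 and 66 with DMSO. The RNA aligned with 61 other small RNA genes over at least 50 columns at 80% identity or more.

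Most Y RNA reads began at the first base of the RNA. Of the Y1 reads, 8 of 15 with SB431542 and 19 of 27 with DMSO started at base 1. Of the Y3 reads, 11 of 12 with SB431542 and 21 of 21 with DMSO did. The fragments of both RNAs thus came mainly from the 5′ end, which in Y RNAs is paired with the 3′ end in the stem that Ro60 binds. Y1 and Y3 have 71.4% identity over 112 aligned columns. Y1 had 29.0 RPM with SB431542 and 27.3 RPM with DMSO, and Y3 had 23.2 RPM with SB431542 and 21.2 RPM with DMSO. Neither reached 50 reads, so no ratio is described for either alone.

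Among the single sequences, Y1 bases 1 to 16 had 3 reads with SB431542 and 8 with DMSO. Y1 bases 1 to 17 had 4 with SB431542 and 7 with DMSO, and bases 1 to 15 had 1 with SB431542 and 4 with DMSO. Y3 bases 1 to 16 had 4 with SB431542 and 16 with DMSO. Y3 bases 1 to 17 had 4 with SB431542 and 5 with DMSO, and bases 1 to 15 had 3 with SB431542 and 0 with DMSO, where 0 allows up to 3.03 RPM. None of these sequences was found in any other annotated gene.

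**Figure D4:**
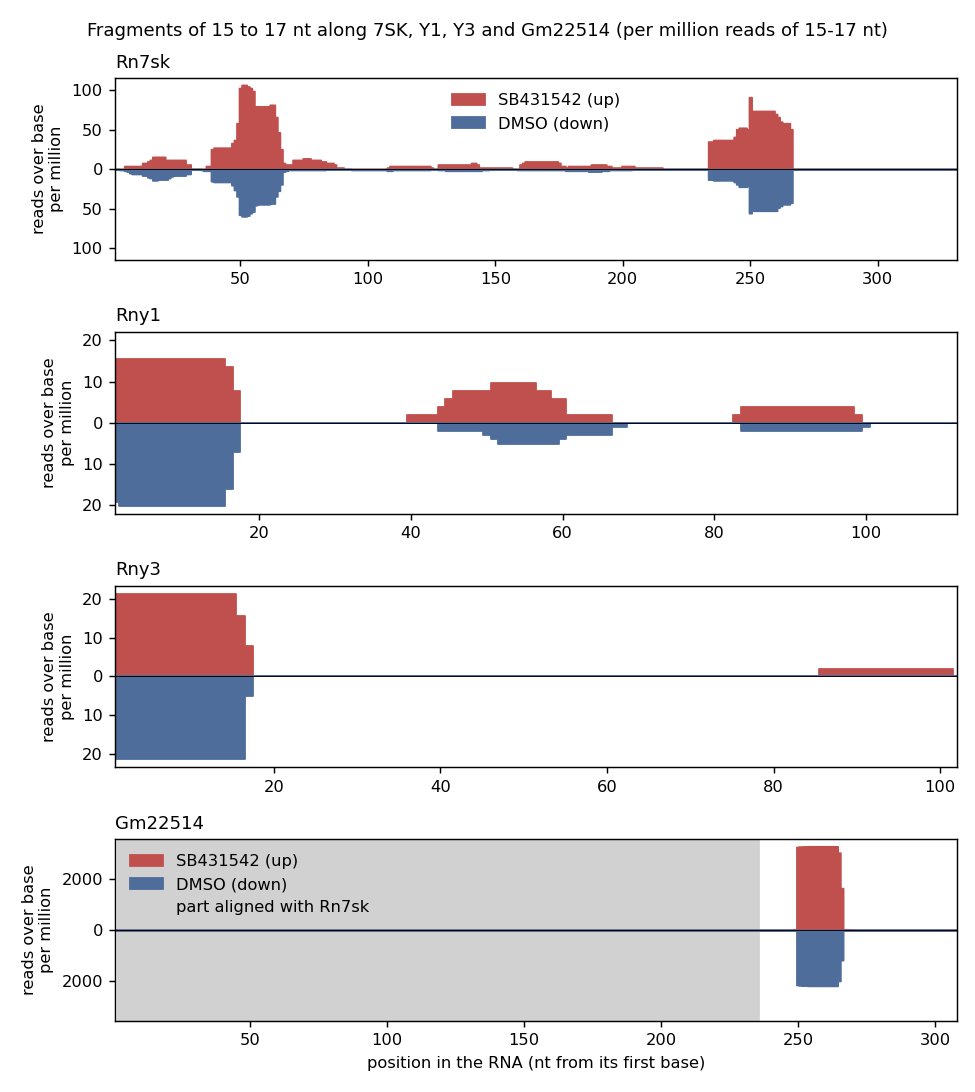
Reads over each base (x axis, nt from the first base of each RNA) in RPM of the reads of 15 to 17 nt for 7SK, Y1, Y3 and Gm22514, with SB431542 drawn upwards and DMSO downwards, 1 library each; the vertical scales differ. Most Y1 and Y3 reads begin at base 1, with a smaller group of Y1 reads at bases 44 to 66, 7SK fragments lie mainly at bases 39 to 66 and 234 to 266, and Gm22514 sequences all lie to the right of the part that aligns with 7SK (grey).

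Gm22514 resembles 7SK over most of its length, but none of its reads came from that part. Its bases 2 to 236 aligned with bases 2 to 241 of Rn7sk at 81.5% identity over 243 columns. The closest gene of all was Gm24447, another miscellaneous RNA, at 81.6% over 245 columns. Over at least 50 columns, 18 other small RNA genes aligned with Gm22514 at 80% or more. The 235 bases aligned with Rn7sk were touched by 0 of the 15 Gm22514 sequences. All 15 lay in the remaining 72 bases at the 3′ end, between bases 248 and 270. They started at base 250 in 1690 of 1712 reads with SB431542 (98.7%) and 2134 of 2181 with DMSO (97.8%).

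The 3 commonest sequences share that first base. Bases 250 to 266, the capitals shown above, had 845 reads with SB431542 (1633 RPM) and 1144 with DMSO (1155 RPM), at a log2 ratio of 0.50 (0.37 to 0.63). Bases 250 to 265 had 720 reads with SB431542 (1391 RPM) and 807 with DMSO (815 RPM), at 0.77 (0.62 to 0.92). Bases 250 to 264 had 125 reads with SB431542 (242 RPM) and 183 with DMSO (185 RPM), at 0.39 (0.05 to 0.72). All 3 had a higher RPM with SB431542, most so the 16 nt one. In contrast to 7SL, only 2 reads with SB431542 and 2 with DMSO were of 14 nt.

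These reads cannot be assigned to Gm22514. The 17 nt sequence lies in sense in 462 other genes of the 55450 annotated, 310 of them protein coding. The 16 nt sequence lies in 485 and the 15 nt sequence in 520, and no Gm22514 sequence lies in fewer than 32 other genes. The repeat that these genes may share was not annotated here. The same bases open a pair of mature miRNAs in RefSeq (GRCm38.p6), shown here with the seed, bases 2 to 8, in capitals because it is the same in both.
mmu-miR-3473b: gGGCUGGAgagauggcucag
mmu-miR-3473e: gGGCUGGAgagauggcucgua
Base 250 of Gm22514 is base 1 of both. The 20 nt of mmu-miR-3473b, at chr10:41670774-41670793 on the plus strand, occur whole in Gm22514. It holds 11 of the 15 sequences, with 1702 reads with SB431542 (99.4%) and 2165 with DMSO (99.3%). The 21 nt of mmu-miR-3473e, at chr5:31667296-31667316 on the minus strand, match Gm22514 over 18 nt. They hold 8 sequences, with 1696 reads with SB431542 (99.1%) and 2151 with DMSO (98.6%), nearly the same share. Whether the reads came from these miRNAs, from Gm22514 or from other genes with the sequence was not tested.

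Known RNA polymerase III products outside the set did not move together. Of 12 names looked for, 10 were annotated and 4 of those had at least 50 reads. Rpph1, the RNA of ribonuclease P, had 53 reads with SB431542 (102 RPM) and 55 with DMSO (55.5 RPM), at a log2 ratio of 0.88 (0.31 to 1.45), close to that of 7SK. Rnu6, the U6 RNA of the spliceosome, had 36 reads with SB431542 (69.6 RPM) and 23 with DMSO (23.2 RPM), at 1.57 (0.79 to 2.40), but its commonest sequence lies in 341 genes. The 5S ribosomal RNA genes (n-R5s, 180 genes counted together) had 5797 reads with SB431542 (11201 RPM) and 12270 with DMSO (12390 RPM), at -0.15 (-0.19 to -0.10). Bc1, a brain-enriched RNA, had 78 reads with SB431542 and 38 with DMSO, at 1.96 (1.40 to 2.57). Of these Bc1 reads, however, 76 with SB431542 and 36 with DMSO were runs of A, and the commonest Bc1 sequence lies in 2022 genes. So 2 of the 4, Rnu6 and Bc1, passed 2-fold higher, beside 16.9% of the small RNA features, and 0 passed 2-fold lower. The median of the 4 was 1.23. Bc1 counts among them only through its runs of A, since its other reads were 2 with SB431542 and 2 with DMSO.

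The rest of the list was too shallow to describe. Rmrp, the RNA of ribonuclease MRP, had 5 reads with SB431542 and 15 with DMSO. Vaultrc5, a vault RNA, had 3 with SB431542 and 6 with DMSO. Rprl1 had 14 with SB431542 and 11 with DMSO, and Rprl2, Rprl3 and Rnu6-ps2 had at most 3 in either library. Of the polymerase II transcripts taken for contrast, Terc, the telomerase RNA, had 5 reads with SB431542 and 27 with DMSO. Rnu11, of the minor spliceosome, had 5 with SB431542 and 17 with DMSO. Rnu12, of the same spliceosome, had 3 with SB431542 and 8 with DMSO, and Rnu7, of histone mRNA processing, had 3 with SB431542 and 5 with DMSO. None of these 4 reached 50 reads.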

How the data were processed

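Libraries were made from TRIzol total RNA with an Illumina TruSeq RNA kit, per the labels. The authors deposited raw read counts per distinct sequence, with the length of each (3 to 17 nt) and no normalization. What trimming, size selection, filters and aligner were used is not given in the sources used here. Per the submitters' processing notes the build was mm9, of which no coordinate was used. Nothing in the labels says how many cultures the 2 libraries stand for.

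Sequences of 15 to 17 nt were matched to GENCODE M21 transcripts (GRCm38) with 0 mismatches, and to RefSeq miRNAs (GRCm38.p6). Counts were scaled to the reads of 15 to 17 nt of each library (517535 with SB431542, 990296 with DMSO), with a pseudocount of 0.5 read. An RNA was described with at least 50 reads. Fragments were placed by their midpoint. Intervals are exact conditional binomial (ratios) or Clopper-Pearson (shares) at 95%. Those from read counts cover counting error only, because PCR duplicates could not be recognised without molecular identifiers. No test was possible with 1 library per group. Gm22514 was aligned with blastn 2.17.0. The matching rule was tried on fragments drawn from the member transcripts, and the intervals on simulated Poisson counts. Both share the assumptions of the counting, so they check the code and not the data. Python 3.11.15 with pandas 2.3.3, scipy 1.17.1, matplotlib 3.10.9 and numpy 2.4.6 was used, and R 4.3.3 with edgeR 4.0.16 and DESeq2 1.42.0 for alternative scales only.

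The members and lists were chosen with earlier results of these data known. The named items are the 6 members, their 3 commonest sequences, the sequences of at least 50 reads with the most extreme ratios, and other polymerase III RNAs of at least 50 reads. Sequences and starts beyond that, the 5% peak rule, the length comparison with 14 nt, the sum of the Y RNAs and the value without Gm22514 were chosen after the data were seen. Other settings tried were the scale, the length minimum, shared sequences, the commonest sequence, distinct sequences, GC content, the pseudocount and the read minimum. Families could not be read from gene names, so small RNA classes stood for a member's own family. Rnu6atac and Rn4.5s matched no gene name, and of the U6 genes GENCODE names Rnu6 and Rnu6-ps2.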

Additional observations from a re-analysis of the deposited data

How the results depend on the processing

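The log2 ratio of the members together, 0.49, stayed positive under all 14 alternatives (0.35 to 0.69). It was 0.65 with edgeR TMM factors, 0.69 with DESeq2 size factors, 0.40 with a minimum length of 14 nt, 0.39 without sequences found in genes other than small RNAs, 0.41 with reads divided over all genes holding the sequence, 0.35 with distinct sequences after thinning the DMSO library, and 0.39 without Gm22514. The share of the 15 to 17 nt reads, 0.622% with SB431542 and 0.443% with DMSO, became 0.693% with SB431542 and 0.480% with DMSO from 16 nt, and 0.471% with DMSO from 14 nt. It became 0.286% with SB431542 and 0.218% with DMSO without sequences in other kinds of gene, and 0.498% with SB431542 and 0.368% with DMSO of all reads in the file. The 7SL ratio ran from 0.24 to 0.55 over 13 alternatives and that of 7SK from 0.59 to 1.15, past 2-fold with TMM, DESeq2, the GC correction and without its commonest sequence. The Gm22514 ratio turned to -0.0011 with distinct sequences, of which it has 15, and has no value without sequences in other genes, since all 15 lie there; the cause of the other shifts was not tested. Counted by distinct sequences, the middle of 7SL held 40.9% with SB431542 and 38.0% with DMSO. No paired analysis was possible because each group has 1 library, and for the same reason no library could be left out. At this depth the Y RNA ratio, from 27 reads with SB431542 and 48 with DMSO, could not be told from 0.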
